A study of Homo sapiens with 32 samples.

Results

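The forkhead genes FOXA1 (ENSG00000129514) and FOXA2 (ENSG00000125798) and the long noncoding RNA LINC00261 (ENSG00000259974) were followed through the in vitro differentiation of human embryonic stem cells toward β-like cells. Members were all merged m6A peaks that the deposited table assigned to these 3 gene identifiers. They comprised 21 of 26104 peaks, in 3 of 7978 genes: 5 peaks of FOXA1, 6 of FOXA2 and 10 of LINC00261. Cells of the established embryonic stem cell lines H1 and MEL1 were collected undifferentiated (S0) and as posterior foregut (S3), pancreatic progenitors (S4) and β-like cells (S6), with no added genotype in any group. Per the study's methods, undifferentiated cells got no differentiation factors. All differentiated cells had been given GDF8 and CHIR-99021, then FGF7 and ascorbic acid, and then retinoic acid, TPB and the inhibitors SANT-1 and LDN-193189. S4 cells went on with FGF7, SANT-1 and retinoic acid. S6 cells were later given SANT-1, retinoic acid, LDN-193189, T3, ALK5 inhibitor II, zinc sulphate, heparin, GSiXX, N-Cys, Trolox and R428. Stage and media therefore cannot be told apart. Each line gave 2 replicates at each stage, so that a stage had 4 preparations and the series 16. From each preparation an m6A immunoprecipitate (IP) and the fragmented mRNA saved before it (input) were sequenced, which gave 32 libraries. The cultures were not sorted, and the labels do not give the share of differentiated cells.

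FOXA1 and FOXA2 are closely related pioneer transcription factors: they bind their motif in compacted chromatin and open it for other factors. Both are known for their role in definitive endoderm and its derivatives, among them liver, lung and pancreas, and FOXA2 binds and activates the pancreatic gene PDX1. LINC00261 is transcribed beside FOXA2 and has been studied as a noncoding RNA of endoderm. N6-methyladenosine (m6A) is an internal mark of mRNA and noncoding RNA, deposited by the METTL3 and METTL14 complex, and is known to act on RNA stability, splicing and translation. An m6A peak is a stretch of a transcript called for an excess of IP over input reads. The merged peaks used here need not exceed input in each preparation. A peak is named here by gene and listed position (FOXA2@604). The table gives no genome coordinates or lengths for peaks, so neither their place in the transcript nor a level per length was available.

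The RefSeq promoters are shown because the 3 genes were induced together and the letters of the forkhead motif can be read in them. Windows from 250 bases before to 50 after the start (GRCh38.p14) were found for 2 of the 3 members. FOXA2 had no entry in the table used. In the lines that follow, capitals mark a match to the forkhead motif, searched as TGTTTAC or TGTTTGC on both strands. The FOXA1 window is chr14:37595200-37595499 and that of LINC00261 is chr20:22578593-22578892, both on the minus strand and printed 5′ to 3′ along the gene.
FOXA1: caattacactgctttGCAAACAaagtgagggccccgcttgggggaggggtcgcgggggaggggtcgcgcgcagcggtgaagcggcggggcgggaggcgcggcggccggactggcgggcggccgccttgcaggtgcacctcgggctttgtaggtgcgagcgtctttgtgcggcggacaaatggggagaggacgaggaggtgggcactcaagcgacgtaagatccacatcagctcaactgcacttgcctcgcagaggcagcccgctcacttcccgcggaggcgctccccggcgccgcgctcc
LINC00261: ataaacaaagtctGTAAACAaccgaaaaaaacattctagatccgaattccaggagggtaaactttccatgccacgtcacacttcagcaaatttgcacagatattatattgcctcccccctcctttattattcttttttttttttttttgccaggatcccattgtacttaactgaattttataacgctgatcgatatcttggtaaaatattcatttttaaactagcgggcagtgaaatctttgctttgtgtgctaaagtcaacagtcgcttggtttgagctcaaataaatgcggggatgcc
The FOXA1 window held 1 match, GCAAACA, starting 235 bases before the start of the gene. The window of LINC00261 held 1, GTAAACA, starting 237 bases before. Of 35116 promoters of the same length, 7.17% held TGTTTAC or TGTTTGC on either strand. TGTTTAC alone was in 3.42% and TGTTTGC alone in 3.89%. Neither window held the GATA letters AGATAA, which were in 10.3% of promoters. GC content was 69.3% in the FOXA1 window and 37% in that of LINC00261, against a median of 58.7% over all promoters. These matches describe letters only. In the RefSeq order on chromosome 20, LINC00261 lay directly next to FOXA2. LNCNEF, the gene on the other side of FOXA2, had 0 peaks in the table, as had the 3 nearest genes on each side of FOXA1.

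Input libraries held 2652830 to 6879256 reads over all peaks, with a median of 4318760. IP libraries held 2378881 to 15674899, with a median of 13100407, and the IP libraries of MEL1 at S4 were the shallowest. Levels are given as CPM, the usual counts scaled to the total of the library. The input level of a gene is the sum over its peaks and so leaves out its stretches without a peak. The stem cell markers with counts fell from S0 to S3 in 9 of 10 cases, among them L1TD1, an RNA-binding protein of pluripotent cells (log2 fold change -4.66), DPPA4 (-3.91) and the DNA methyltransferase DNMT3B (-3.62). Of 16 islet endocrine genes only 3 had counts, and INS was not among them, so the endocrine label of S6 could hardly be checked from this list. From S0 to S3, 2 of the 3 were called higher, at a median of 4.51 over the 3. CHGA, a granule protein of endocrine cells, was lower at S3 than at S0 (-3.88). It was then higher at S4 than at S3 (4.50) and at S6 than at S4 (2.23). The transcription factors GLIS3 (1.58 and 0.53) and ISL1 (0.62 and 1.01) were not called at either of these later steps.

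All 3 genes were nearly silent in undifferentiated cells, were highest at S3, and were lower at S4 and S6. Gene sums at S0 were 7 to 11 input reads for FOXA1, 11 to 19 for FOXA2 and 8 to 23 for LINC00261. FOXA2 stood at 396 and 385 CPM in the H1 replicates and 810 and 810 in the MEL1 replicates at S3. At S4 the same gene gave 219.55 and 217 in H1 and 235 and 217 in MEL1, and at S6 85.1 and 83.5 in H1 and 126 and 125 in MEL1. FOXA2 thus fell stage by stage with no overlap between any of the 4 stages. LINC00261 gave 592 and 594 CPM in H1 and 1258 and 1217 in MEL1 at S3. Its S4 values were 216 and 199 in H1 and 203 and 200.37 in MEL1, followed at S6 by 57.7 and 50.9 in H1 and 44.3 and 46.0 in MEL1. Its stages did not overlap either, and its 4 S4 values spanned 199 to 216 CPM.

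FOXA1 had its own pattern, since the lines stood apart at every differentiated stage. It gave 278 and 249 CPM in H1 and 520.35 and 633 in MEL1 at S3. At S4 it was 165 and 174 in H1 and 281 and 321 in MEL1, and at S6 77.5 and 71.5 in H1 and 184 and 251 in MEL1. The MEL1 values at S4 reached above the H1 values at S3, so the stages overlapped for FOXA1. Stage means were 1.84 ± 0.486, 420.0 ± 187, 235 ± 77.6 and 146 ± 86.9 CPM for FOXA1 at S0, S3, S4 and S6 (SD, n = 4). For FOXA2 they were 2.97 ± 0.978, 600.3 ± 242, 222 ± 8.78 and 105 ± 23.7 CPM. For LINC00261 they were 2.85 ± 1.24, 915 ± 372, 205 ± 7.68 and 49.7 ± 6.02 CPM. In these bulk cultures, fewer cells of a type and less RNA per cell cannot be told apart.

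**Figure D1:**
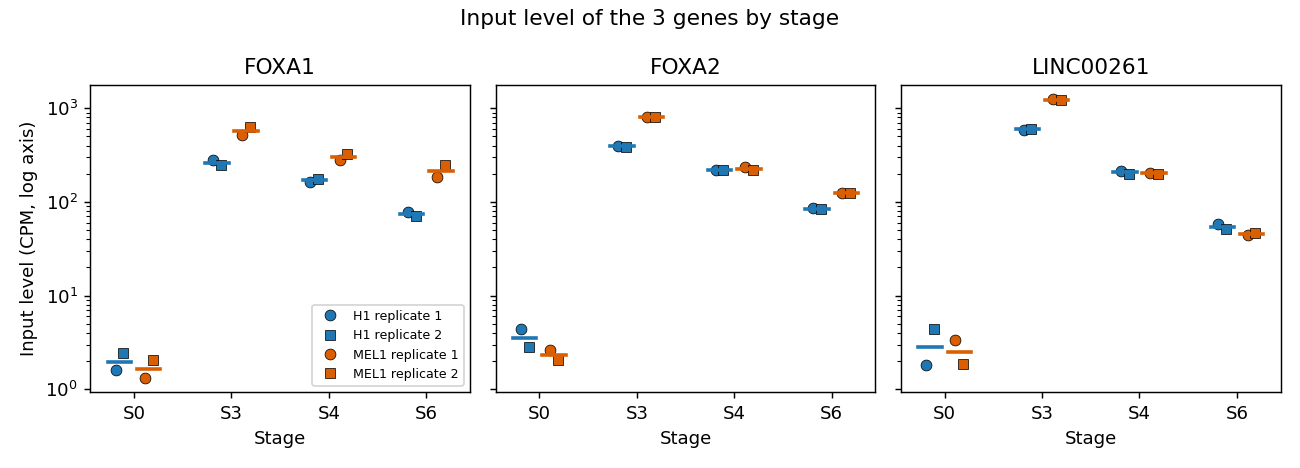
Input level of FOXA1, FOXA2 and LINC00261 (CPM, log axis) in each of the 16 preparations at S0, S3, S4 and S6, with colours for the lines and bars for the geometric mean of 2 replicates. FOXA2 fell from a mean of 600.3 CPM at S3 to 105 at S6 and LINC00261 from 915 to 49.7, without overlap between stages, while the H1 and MEL1 values of FOXA1 stayed apart.

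Induction at S3 passed the test for all 3 genes. Changes were tested with edgeR's quasi-likelihood test over 7973 genes with line as a covariate. A gene counted as called when its p, adjusted by Benjamini-Hochberg, was under 0.1 and the difference at least 2-fold. From S0 to S3 the log2 fold changes were 7.53 for FOXA1 (SE 0.35, adjusted p = 5.9e-10), 7.33 for FOXA2 (SE 0.30, adjusted p = 1.4e-10) and 7.99 for LINC00261 (SE 0.33, adjusted p = 1.4e-10). In that comparison 28.8% of all genes were called. The later stages stayed far above S0, where 31.2% of genes were called at S4 and 31.4% at S6. At S4 the changes against S0 were 6.67, 5.92 and 5.83 for FOXA1, FOXA2 and LINC00261, and at S6 5.89, 4.81 and 3.79. These comparisons share the S0 libraries.

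The falls after S3 differed in size among the 3 genes. From S3 to S4, with 1.84% of genes called, LINC00261 fell by 2.16 on the log2 scale (SE 0.24, adjusted p = 0.00041 in edgeR). FOXA2 fell by 1.41 (SE 0.22, edgeR adjusted p = 0.0048). The FOXA1 value was -0.85 (SE 0.24, edgeR adjusted p = 0.11) and was not called, although within each line both S4 values lay below both S3 values. At the next step, S4 to S6, with 5.18% of genes called, LINC00261 fell by 2.04 (SE 0.25, edgeR adjusted p = 0.00023) and FOXA2 by 1.11 (SE 0.22, edgeR adjusted p = 0.0090). FOXA1 was again under the 2-fold limit at -0.78 (SE 0.25, edgeR adjusted p = 0.076). Over the whole span from S3 to S6, with 14.0% called, all 3 fell, by 1.64 for FOXA1, 2.52 for FOXA2 and 4.20 for LINC00261. Without line as a covariate, both single-step calls of FOXA2 were lost, with values of -1.48 (adjusted p = 0.13) from S3 to S4 and -1.05 (adjusted p = 0.15) from S4 to S6.

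The lines differed in level as well as in course. At S3 MEL1 was above H1 by 1.18 log2 units for FOXA1, 1.10 for FOXA2 and 1.11 for LINC00261, and all 3 differences were called. At S3 29.8% of all genes were called in this comparison, 13.3% as higher in MEL1. FOXA1 stayed higher in MEL1 at S4 (1.32, with 15.6% of genes called higher) and S6 (2.03, with 11.7%), and FOXA2 was higher at S6 (1.06). In either direction 1 of 3 members was called at S4 and 2 of 3 at S6, beside 34.0% and 22.4% of genes. At S0 none of the 3 was called in edgeR, beside 15.3% of genes in either direction and 6.45% higher in MEL1. For LINC00261 at S6 the fitted difference was 0.22 (adjusted p = 0.43 in edgeR) and was not called. Its CPM ran the other way, with 44.3 and 46.0 in MEL1 below 57.7 and 50.9 in H1, so that its direction at S6 turns with the scaling. The rise from S0 to S3 was larger in MEL1 by 1.17 for FOXA1 (adjusted p = 0.053), 1.39 for FOXA2 (adjusted p = 0.0042) and 1.02 for LINC00261 (adjusted p = 0.075), in edgeR's test of the difference itself. That test called 34.0% of all genes, so 3 of 3 members stand beside a broad difference between the lines. For the steps from S3 to S4 and from S4 to S6, which called 9.65% and 15.3% of genes, none of the 3 members passed both limits. Their differences ran from -0.66 to 0.71 log2 units.

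Whether LINC00261 follows FOXA2 was asked through the ratio of their input reads in the same library, which no scaling of libraries can change. Both genes rose from S0 to S3 and both were lower at each later step, without overlap between stages, but LINC00261 fell further. The ratio was 1.495 to 1.55 in the 4 preparations at S3 and 0.862 to 0.983 at S4. At S6 it was 0.355 to 0.679. No value of one stage reached the range of another. On the log2 scale, with 1 read added to each count, the ratio was 0.61 ± 0.03, -0.12 ± 0.08 and -1.05 ± 0.49 at S3, S4 and S6 (SD, n = 4). The decrease was 0.73 from S3 to S4, 0.93 from S4 to S6 and 1.66 from S3 to S6. Each gave p = 0.029 in a two-sided exact permutation test, also after adjustment over the 3 pairs, which is the smallest p that 4 against 4 allows. This test took the 4 preparations of a stage as exchangeable, although they came as replicates of separate lines. A permutation within the lines is given below and could not pass. Within the lines the ratio changed by -0.68 and then -0.56 in H1, and by -0.77 and then -1.30 in MEL1. At S6 both MEL1 values lay below those of H1. At S0, where the counts were low, the ratio ranged from 0.45 to 1.5.

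**Figure D2:**
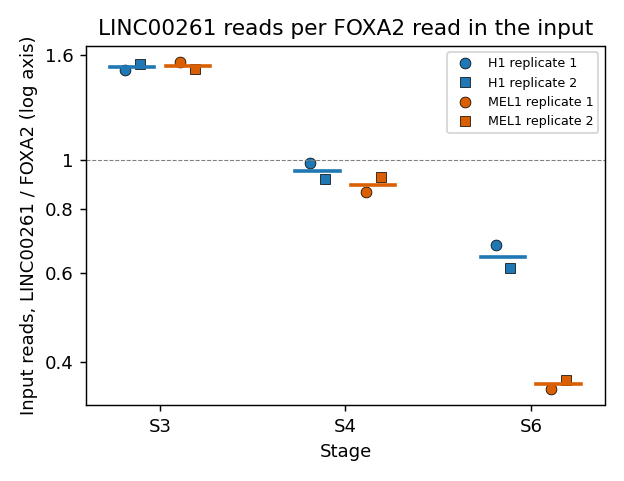
Ratio of LINC00261 to FOXA2 input reads (log axis) in each of the 12 preparations of S3, S4 and S6; bars are geometric means of the 2 replicates of a line. The ratio stepped down from 1.495 to 1.55 at S3 to 0.355 to 0.679 at S6, where MEL1 lay below H1.

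A correlation over the stages is given no p here, since the stages form separate clusters. Between the replicates of the same line and stage, FOXA2 and LINC00261 differed in the same direction in 4 of 6 pairs, and their deviations from the pair means had a Pearson's r of 0.289, which is a description without a test. Permuting stage labels within each line can reach no lower than 0.056, and all 3 adjusted values were 0.056. Leaving out any 1 of the 4 preparations of S4 gave an adjusted p of 0.057 for S4 to S6, with differences of -0.96 to -0.90. In IP reads the courses of the lines were opposite after S4. The ratio in H1 was 1.39 and 1.4996 at S3, 0.228 and 0.227 at S4, and 0.547 and 0.486 at S6. In MEL1 it was 1.11 and 1.24, then 0.969 and 0.936, then 0.462 and 0.278. From S3 to S4 it thus changed by -2.66 in H1 and -0.30 in MEL1 on the log2 scale, and from S4 to S6 by 1.18 in H1 and -1.41 in MEL1. The difference between the lines was not tested. Over both lines the changes were -1.48 and -0.11 (p = 1 for the second, exact permutation test), of which the second averages opposite directions. The ratio of FOXA1 to FOXA2 input reads went the other way. Its geometric mean was 0.691 at S3, 1.02 at S4 and 1.23 at S6, a description only.

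LINC00261 carries a limit of its own. A second identifier without a symbol in the tables, ENSG00000283932, also had 10 peaks, and 6 of them lay at a constant offset of 653 from a LINC00261 peak. Its reads were 0.980 to 1.19 times those of LINC00261 in the 25 libraries with at least 100 reads. Reads may therefore be counted under both identifiers, and the LINC00261 values are uncertain to that extent. With its counts in place of those of LINC00261, an alternative chosen after seeing the data, the ratio to FOXA2 changed by -0.70, -0.95 and -1.64 for the same 3 comparisons.

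Likeness to other genes was measured as Pearson's r of log2 CPM over the 16 input libraries, among the 7721 genes that averaged 1 CPM or more. These r values are descriptions, since all libraries share the gap between S0 and the later stages. The genes most like FOXA2 were FOXA1 (0.983), the extracellular matrix gene FN1 (0.983) and the receptor ROR2 (0.980), with LINC00261 at rank 6 (0.973). FOXA1 was most like FN1 (0.988), then FOXA2 (0.983) and ROR2 (0.983). LINC00261 was most like its overlapping identifier, then FOXA2 (0.973) and the endoderm factor GATA4 (0.969). Without S0, over 12 libraries, the gene most like FOXA2 was GATA4 (0.975), followed by LINC00261 (0.972). FOXA2 ranked 2 for LINC00261, after the overlapping identifier, whereas FOXA1 dropped to rank 33 for FOXA2.

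In IP over input, 1 or a few peaks of each gene stood out. The value is the ratio of IP CPM to input CPM with 1 read added to each count. FOXA2@604 was above 1 in 12 of 12 differentiated preparations, from 2.74 to 4.97. It held 59.6% to 68.1% of the input reads in FOXA2 peaks and 68.9% to 92.5% of the IP reads. The next FOXA2 peak by input, FOXA2@1554, held 16.7% to 28.1% of input reads but was above 1 in 1 of 12. FOXA2@404 was above 1 in 7 of 12, from 0.284 to 14.6, and held 1.06% to 16.2% of the IP reads. FOXA2@604 was not the most enriched peak in every preparation. In MEL1 at S4, FOXA2@404 stood at 14.6 and 7.43 and FOXA2@304 at 16.6 and 13.9, against 3.51 and 3.94 for FOXA2@604. The FOXA2@304 values rest on 3 and 1 input reads.

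FOXA1 had 3 peaks above 1 in all 12 differentiated preparations. FOXA1@1233, the most read, ranged from 1.02 to 4.03, FOXA1@1983 from 2.64 to 7.62 and FOXA1@2433 from 1.74 to 7.54. LINC00261 carried its leading peak at LINC00261@4253, from 0.557 to 7.33 and above 1 in 10 of 12. That peak held 38.9% to 60.1% of the IP reads of the gene. LINC00261@3653, from 0.435 to 4.87, was also above 1 in 10 of 12. The preparations below 1 were, for both, the H1 replicates at S4.

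Against input at the same stage, 6 of 21 member peaks were higher in IP at S3, where 30.3% of all peaks were. They were FOXA1@1233 (log2 1.68), FOXA1@1883 (2.002), FOXA1@1983 (2.49), FOXA1@2433 (1.80), FOXA2@604 (1.999) and LINC00261@4253 (2.24). At S4 the members numbered 4 of 21, beside 20.8% of all peaks, and at S6 4 of 21, beside 28.4%. At S0 none of the 21 was higher in IP in edgeR, against 30.7% of all peaks. There 4 of 21 were called lower, beside 24.9% of all peaks, and these were the members with an unadjusted p under 0.05, while alternatives gave 0 to 1 higher. At the later stages 1, 4 and 3 of 21 were called lower, beside 31.0%, 32.1% and 34.6% of all peaks at S3, S4 and S6. The 4 at S4 were FOXA2@1554 (-1.20) and LINC00261@953 (-1.91), LINC00261@2403 (-1.78) and LINC00261@2553 (-2.77). No member had more than 84 reads in any S0 library. None of the shares at S3, S4 and S6 exceeded that of all peaks, and they are not read as a property of these genes.

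**Figure D3:**
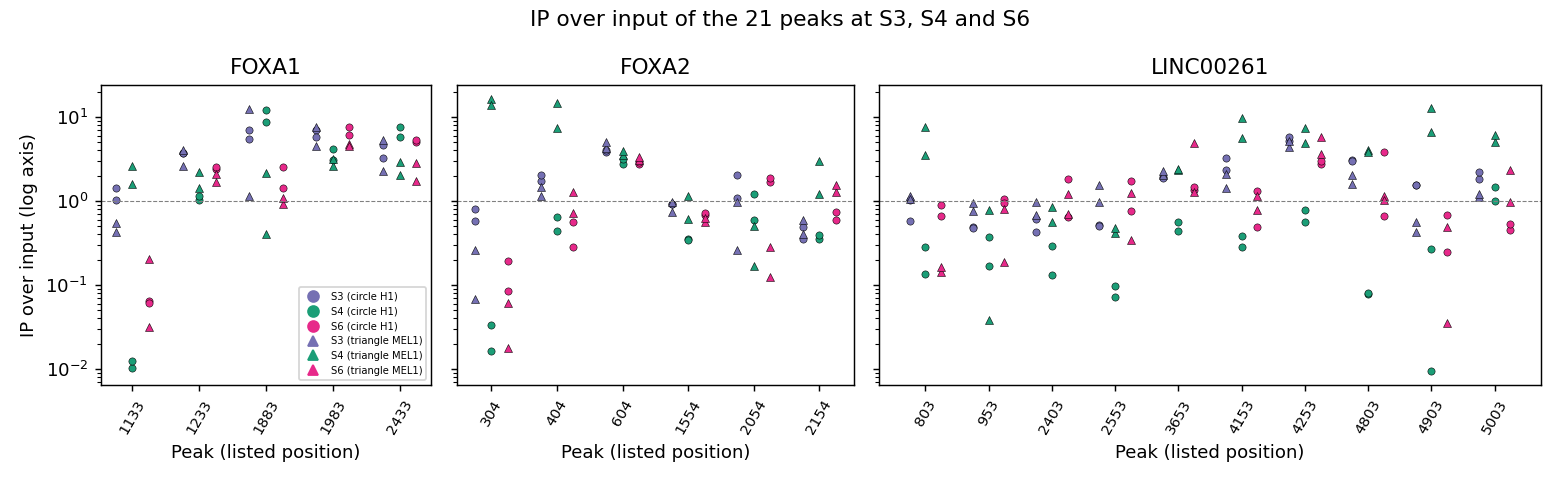
IP over input (log axis) of each of the 21 peaks, by listed position, in the 12 preparations of S3, S4 and S6; circles are H1, triangles MEL1 and colours the stages. FOXA2@604 was above 1 in 12 of 12 differentiated preparations, and LINC00261@4253 was below 1 only in the H1 replicates at S4.

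For the m6A change, edgeR tested the interaction of stage and library type per peak over all 32 libraries, with the same limits. From S0 to S3, 0.0498% of all peaks were called, 13 of 26104, and 3 of these were members. The 3 genes had 7 to 23 input reads at S0, so their merged peaks rest mainly on reads of the later stages. A rise against S0 is thus partly built into the members, and the 3 of 13 is not read as an enrichment. Only 5 of the 21 member peaks had more than 3 reads in some library of each group compared, so most members could not have given a fold. The 3 called were all higher at S3. FOXA2@604 rose by 3.40 (SE 0.49, edgeR adjusted p = 0.0015). At S0 its IP reads were 4 and 16 in H1 and 21 and 29 in MEL1, beside 16, 10, 14 and 8 input reads. At S3 its IP reads were 12930 and 13373 in H1 and 31162 and 33023 in MEL1, beside 1208, 1087, 2200 and 2060 input reads. IP over input was therefore 0.114 to 1.20 at S0 and 3.80 to 4.97 at S3, without overlap. FOXA2@604 kept its call in 18 of 18 alternatives, with adjusted p up to 0.087.

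FOXA1@1983 rose by 4.35 (SE 0.76, edgeR adjusted p = 0.016) from 0 to 6 IP reads and 1 to 5 input reads at S0. Its call was lost without MEL1 S0 replicate 1 (edgeR adjusted p = 0.16) or replicate 2 (edgeR adjusted p = 0.34), and also without line as a covariate (edgeR adjusted p = 0.30) or in H1 alone (edgeR adjusted p = 0.16). The FOXA1@1983 value itself ran from 3.97 to 5.44 on leaving out 1 preparation and from 3.18 to 6.54 over all alternatives. LINC00261@3653 rose by 2.95 (SE 0.58, edgeR adjusted p = 0.048) from 1 to 6 IP reads and 1 to 9 input reads, and kept its call in 8 of 18 alternatives. Of the 8 fits without 1 preparation, 1 kept it, at 2.80 to 3.06, and the call was lost without any preparation but H1 S0 replicate 1. LINC00261@4253 was 2.58 higher but was not called (edgeR adjusted p = 0.41). In MEL1 S0 replicate 2 it had 84 IP reads on 4 input reads, the most of any S0 library. Without that replicate the value was 3.88 (edgeR adjusted p = 0.026). The same 3 peaks were called higher from S0 to S6, at 2.74 for FOXA2@604, 4.03 for FOXA1@1983 and 2.67 for LINC00261@3653. There 1.26% of all peaks were called, 20 higher and 308 lower. All 3 of these calls were lost without line as a covariate (edgeR adjusted p = 0.11, 0.11 and 0.15). Over all alternatives the 3 values ran from 1.84 to 3.75, 3.44 to 6.51 and 1.997 to 3.07. FOXA1@1983 was also lost without MEL1 S0 replicate 1 or 2 (edgeR adjusted p = 0.15 and 0.22), and LINC00261@3653 without any 1 of the 4 MEL1 preparations of S0 and S6 (2.44 to 2.86), in H1 alone (2.14) and with thinned IP reads (1.997). From S0 to S4, 11.3% of all peaks were called, 263 higher and 2695 lower, and 5 of 21 members, 4 higher and 1 lower. As from S0 to S3, a rise against S0 is partly built into the members. Of those 5, FOXA1@2433 and LINC00261@2553 were at or under 3 reads in a group at S0, so no fold is given for them.

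Between differentiated stages, with both lines in the fit, the members' calls were near the share of all peaks and are not read as a property of these genes. From S3 to S4, 6.60% of all peaks were called and 1 of 21 members, FOXA1@1233, which fell by 1.53 (SE 0.46, edgeR adjusted p = 0.061). The median over all peaks was itself -0.36 in this comparison, and 0.12 under another scaling (RLE), where FOXA1@1233 stood at -1.05 (adjusted p = 0.25) and was not called. Its call was also lost without H1 S3 replicate 1 or 2, H1 S4 replicate 1 or MEL1 S3 replicate 1 or 2, over a range of -1.63 to -1.04. With each preparation as a block, since input and IP come from the same RNA, 2 members were called, FOXA1@1233 at -1.55 (edgeR adjusted p = 0.032) and LINC00261@2553 at -2.31 (edgeR adjusted p = 0.052). FOXA2@604 moved by -0.54 (edgeR adjusted p = 0.56) and LINC00261@4253 by -1.48 (edgeR adjusted p = 0.22). From S4 to S6, 7.58% of all peaks were called and 2 of 21 members. LINC00261@2403 rose by 1.79 (edgeR adjusted p = 0.081). FOXA2@304 was called lower, with at most 4 IP reads in any S6 library against up to 61 at S4. The lines went opposite ways: MEL1 went from 61 and 21 IP reads to 0 and 0, whereas H1 went from 1 and 0 to 4 and 2. H1 alone was called higher, on counts too low for a fold to be given. Neither was called without H1 S6 replicate 2, MEL1 S4 replicate 2 or MEL1 S6 replicate 1, where LINC00261@2403 stood at 2.001, 1.79 and 1.87. LINC00261@2403 was also lost without H1 S4 replicate 1 or 2 or H1 S6 replicate 1, and FOXA2@304 without MEL1 S4 replicate 1 or MEL1 S6 replicate 2. With the preparation as a block neither kept its call, and LINC00261@2553 was called in their place at 2.43 (edgeR adjusted p = 0.061). From S3 to S6, edgeR called 0% of all peaks and none of the members, with 756 peaks at an unadjusted p under 0.05, and DESeq2 called 4 peaks.

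The pooled values from S3 to S4 cover courses that differed between the lines, as at LINC00261@4253. In H1 its IP over input was 5.13 and 5.83 at S3, 0.557 and 0.778 at S4, and 2.73 and 3.01 at S6. In MEL1 it was 4.37 and 5.25 at S3, 7.33 and 4.84 at S4, and 3.61 and 5.74 at S6. In H1 it dropped below 1 at S4 and came back, whereas the MEL1 values at the 3 stages overlapped. The change from S3 to S4 was -2.63 in H1 and -0.55 in MEL1, a difference of 2.08 (SE 0.56, edgeR adjusted p = 0.0085) that was called in 13 of 13 alternatives, from 1.79 to 3.33. The MEL1 value of -0.55 is a fitted one. Its mean log2 IP over input went from 2.26 at S3 to 2.575 at S4, so the MEL1 direction turns with the scaling. From S4 to S6 the change was 1.97 in H1 and -0.091 in MEL1, a difference of -2.06 (edgeR adjusted p = 0.021). That second call was lost without MEL1 S6 replicate 1, at -1.57 (edgeR adjusted p = 0.13).

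These libraries stood apart in other ways. Median IP over input of all peaks was 0.617 and 0.677 in the H1 replicates at S4 and 1.07 and 1.27 in those of MEL1, whose IP libraries were the shallowest. The alternatives for the S3 to S4 difference included IP reads thinned to a common depth and other scalings, and its call was kept in each. Beyond that, the part of either in the result was not tested. Relative to FOXA2@604 in the same libraries, which removes the scaling, LINC00261@4253 stood at 1.35 and 1.45 in H1 at S3, 0.203 and 0.248 at S4, and 0.998 and 1.04 at S6. In MEL1 the same quantity was 1.03 and 1.06, then 2.09 and 1.23, then 1.19 and 1.72. FOXA2@604 itself went from 3.80 and 4.02 in H1 at S3 to 2.75 and 3.14 at S4, and from 4.24 and 4.97 to 3.51 and 3.94 in MEL1. Summed over its peaks, LINC00261 had 1080 and 1471 IP reads in H1 at S4 (92.6 and 105 CPM), against 720.33 and 644 CPM in MEL1.

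**Figure D4:**
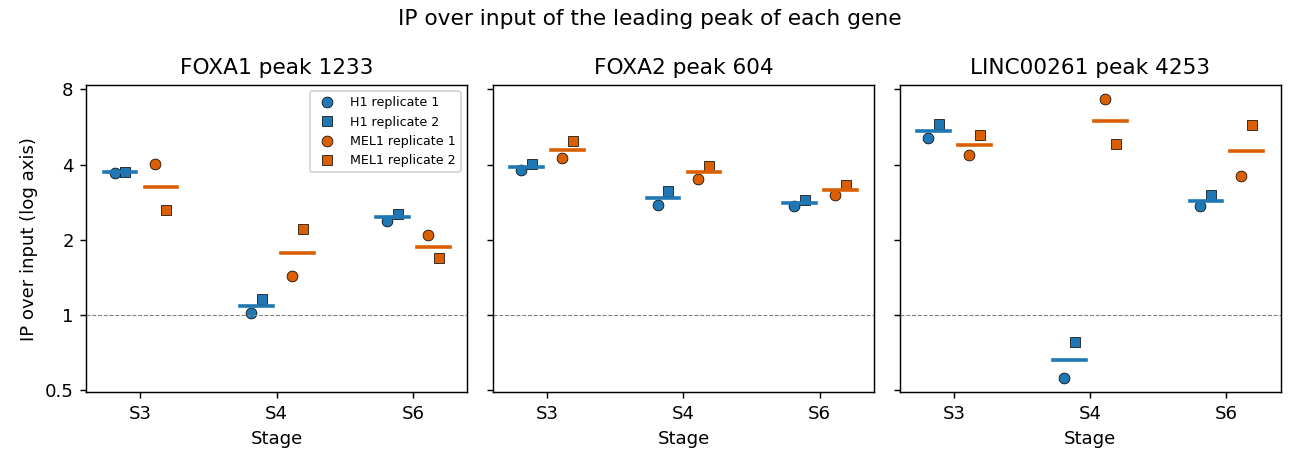
IP over input (log axis) of the peak of each gene with the most IP reads, in each preparation of S3, S4 and S6; bars are geometric means of the 2 replicates of a line. LINC00261@4253 fell to 0.557 and 0.778 in H1 at S4 while the MEL1 values were 7.33 and 4.84, and FOXA2@604 stayed between 2.74 and 4.97.

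Across the members, the difference between lines was called for 11 of 21 peaks from S3 to S4, where 29.4% of all peaks were, and for 9 of the 18 with more than 3 reads in every group. From S4 to S6 it was called for 7 of 21, beside 21.1% of all peaks, and for 4 of the 17 above 3 reads. The shares of all peaks carry no such limit on reads, so they can be set beside the counts of 21 only. From S0 to S3 it was called for 1 of 21, beside 12.2%, which was LINC00261@4253. H1 alone gave 12 of 21 member calls from S3 to S4, of which 11 were lower and 7 lay in LINC00261, but 46.2% of all peaks were called there too. MEL1 alone gave 5 of 21, beside 12.7%. Calls at S4 in H1 were therefore broad and are not read as particular to these genes.

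FOXA1 showed a shift among its own peaks in the H1 libraries at S4, which needs no scaling between libraries. How often the peaks of other genes shifted in these libraries was not examined. The shift is therefore not read as particular to FOXA1. In H1, FOXA1@1233 held 59.3% and 62.3% of the IP reads of the gene at S3, 27.5% and 35.2% at S4, and 53.7% and 51.7% at S6. FOXA1@2433 held 9.68% and 6.64%, then 34.3% and 25.4%, then 12.5% and 13.3%. FOXA1@1883 also took more, from 1.90% and 1.26% to 12.3% and 9.06% at S4, and held 1.28% and 1.68% at S6. In MEL1 the share of FOXA1@1233 was 58.5% and 60.2%, 58.1% and 65.5%, and 59.6% and 56.8% at the 3 stages. FOXA1@2433 held 8.85% and 7.25%, 11.5% and 8.87%, and 8.57% and 6.60%, while FOXA1@1883 held 0.162% to 2.29%. In H1 at S4 the share of FOXA1@1233 lay below, and those of FOXA1@2433 and FOXA1@1883 above, all other values of the 12 preparations. The input share of FOXA1@1233 was 65.3% to 73.0% in all 12 differentiated preparations. In the test of IP against input, the line difference from S3 to S4 was -2.62 for FOXA1@2433 (edgeR adjusted p = 0.0029) and became -1.36 (adjusted p = 0.11) with library totals as the scaling. FOXA1@1233 itself changed by -1.37 in H1 and by -1.68 in MEL1, and its line difference of -0.31 (edgeR adjusted p = 0.73) was not called.

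**Figure D5:**
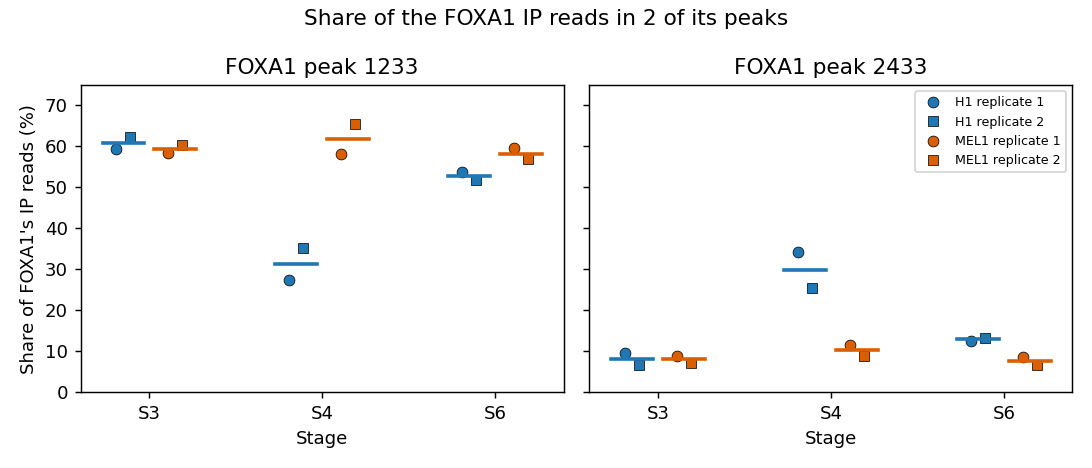
Percent of the IP reads in FOXA1 peaks that fell in FOXA1@1233 and FOXA1@2433, per preparation of S3, S4 and S6; bars are means of the 2 replicates of a line. In H1 at S4 FOXA1@1233 held 27.5% and 35.2% and FOXA1@2433 34.3% and 25.4%, while FOXA1@1233 held 58.1% and 65.5% in MEL1.

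The input of related genes is given by list, beside 28.8% of all genes called from S0 to S3, 1.84% from S3 to S4 and 5.18% from S4 to S6. Of 27 foregut and endoderm regulators 21 had counts. From S0 to S3, 18 of them rose and none fell, with a median log2 fold change of 4.34 against -0.020 over all genes. Among the strongest were the hepatocyte nuclear factor HNF4A (8.03), GATA4 (6.56) and PDX1, the regulator of pancreas formation (6.31). From S3 to S4, 2 rose, the chemokine receptor CXCR4 (2.47) and PROX1 (2.06), and 3 fell, among them the ligand IHH (-2.10) and GATA4 (-1.69). Between S4 and S6, 4 rose, among them the factor KLF5 (2.62), and 3 fell, among them GATA4 (-2.08) and FOXA3 (-1.33). GATA4 thus fell at both steps, as FOXA2 and LINC00261 did.

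Of 18 FOXA target genes of liver and foregut, 9 had counts. From S0 to S3, 8 rose, led by vitronectin (VTN, 11.10), alpha-fetoprotein (AFP, 10.96), fibrinogen beta (FGB, 10.50) and APOA2 (10.24). From S3 to S4, when FOXA2 fell, none of the 9 was called in edgeR, and their median was 0.20 against 0.023 over all genes. Between S4 and S6, 5 fell, among them AFP (-5.50), APOB (-4.20), APOA2 (-3.94) and VTN (-2.83). Of 18 other members of the forkhead family, 4 rose and 3 fell from S0 to S3, such as FOXJ1 (3.73), FOXP4 (3.55) and FOXD3 (-3.07), beside 28.8% of all genes called. The median of the 18 was -0.25. FOXA3, the closest relative of the pair, rose by 1.02 there.

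Among the m6A machinery, 11 of 16 genes had counts, and 1 was called from S0 to S3, the writer subunit RBM15B (1.09), beside 28.8% of all genes. None was called from S3 to S4 or from S4 to S6, while the median of the 11 was -0.10 and -0.24. Of the mesoderm and neural markers, 5 of 14 had counts, with 2 rising and 1 falling from S0 to S3, a count too small to set against that share. Of 14 genes fixed around both loci, only THBD, the thrombomodulin gene near FOXA2, had counts. It rose from S0 to S3 (3.29) and from S4 to S6 (1.69), the step at which FOXA2 and LINC00261 fell.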

How the data were processed

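Whole-number read counts per merged m6A peak were deposited for 32 libraries. The authors made them with MeRIPtools from counts in 50-bp bins on the Ensembl annotation v94, by peak calling, merging and counting in merged peaks. The aligner, genome build and peak settings are not given in the sources used here. Genes and lists were chosen with earlier results of these data known. Input counts were summed per gene (7973 genes) and peaks tested singly (26104), with a total of at least 10. edgeR 4.0.16 in R 4.3.3 (TMM, quasi-likelihood test) used line as a covariate, with DESeq2 1.42.0 as an alternative. Standard errors are the absolute log2 fold change over the square root of F. Ratios were tested by exact permutation in scipy 1.17.1. Named were the 3 genes with their peaks, the 3 genes most like each, and up to 4 called members of a list, those with the largest change, or ones that define a stage. A further gene that this rule names is not reported here. The scripts were tested on simulated data. The study describes the replicates as independent biological samples, while the labels do not say whether they came from separate cultures, so p-values measure the spread between these samples. Replicates of a group differed by more than counting noise. Intervals cover no error beyond these libraries. Peak lengths were not used here. Replicate numbers were not taken to pair stages, whereas input and IP of a preparation share RNA.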

Additional observations from a re-analysis of the deposited data

Results flagged for a closer look

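Of 75 groups of 4 preparations, 4 held a value far from the other 3, and chance alone gives about 1 in 20. The gap to the nearest value was 0.841 of the whole range for the FOXA2 input level at S4 (MEL1 replicate 1 highest), 0.834 for LINC00261@803 at S3 (H1 replicate 1), 0.842 for LINC00261@953 at S6 (MEL1 replicate 1) and 0.897 for LINC00261@3653 at S6 (MEL1 replicate 1).

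A tested difference between the lines (MEL1 minus H1, log2) drew attention to the input rise from S0 to S3 of FOXA1 (1.17), FOXA2 (1.39) and LINC00261 (1.02), which was larger in MEL1. For the m6A change from S0 to S3 it was -4.15 at LINC00261@4253, where MEL1 S0 replicate 2 had 84 IP reads.

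From S3 to S4 the lines differed at FOXA2@404 (3.57) and FOXA2@604 (-1.13), at FOXA1@1983 (-1.41) and FOXA1@2433 (-2.62), and in LINC00261 at peaks 803 (3.00), 4153 (3.85), 4253 (2.08), 4803 (5.37) and 4903 (6.83). From S4 to S6 they differed at LINC00261 peaks 4153 (-3.64), 4253 (-2.06), 4803 (-5.66) and 4903 (-6.47). Leaving out 1 preparation gave -4.44 to -2.99, -2.40 to -1.57, -7.41 to -4.54 and -12.6 to -5.10 for these. The calls of 4153, 4253 and 4903 were lost in some of these fits. The 4 LINC00261 peaks named at both steps had opposite signs, and both steps share the S4 libraries. With library totals as the scaling, the S3 to S4 value turned to 0.11 at FOXA2@604 and became -0.16 at FOXA1@1983. Leaving out 1 preparation gave -1.33 to -0.64 and -1.71 to -0.65 at these peaks from S3 to S4. It gave 2.43 to 3.67 at LINC00261@803 and 5.65 to 13.3 at LINC00261@4903. The calls of FOXA2@604, FOXA1@1983 and LINC00261@803 were lost in some of these fits.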

How the results depend on the processing

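Of 1244 recalculations of 77 results, 1070 kept direction and side of the threshold. Without line as a covariate, FOXA2 input lost its calls (S4 against S3 -1.48, S6 against S4 -1.05). For S6 against S4 it also fell under the limit in MEL1 alone (-0.85) and with the most read peak only (-0.98), while FOXA1 passed in H1 alone (-1.18), and without MEL1 S6 replicate 2, in a range of -1.004 to -0.63 on leaving out 1 preparation. Member peaks called for S3 against S0 were 5 with DESeq2, 1 without line and 1 to 3 on leaving out a preparation. For S4 against S3 they were 0 under RLE, TMM within IP and input, no line term or thinned IP, 12 in H1 alone, 5 in MEL1 alone and 0 to 3 on leaving out. For S6 against S4 they were 1 with DESeq2, RLE or TMM within type, 0 without line, 10 in H1, 5 in MEL1 and 0 to 2 on leaving out. The replicate block by preparation gave 2 calls for S4 against S3 and 1 for S6 against S4. For S4 against S0 they were 3 without line, 3 thinned, 8 in H1 and 3 in MEL1, for S6 against S0 5 with DESeq2, 0 without line, 7 in H1 and 1 to 3 on leaving out, and for S6 against S3 3 in H1. Peaks higher in IP at S0 were 1 in MEL1 and 0 to 1 on leaving out, at S4 7 with TMM within type, 7 in MEL1 and 4 to 8 on leaving out, at S6 2 under RLE and 7 in H1. The line difference S3 against S0 gave 3 calls with library totals. The LINC00261 to FOXA2 ratio was -0.11 for S6 against S4 in IP reads, the mean of a rise in H1 (1.18) and a fall in MEL1 (-1.41). Permuted within lines it was -0.73, -0.93 and -1.66, none able to pass, and S6 against S4 ran from -1.10 to -0.78 on leaving out. Reversed were FOXA2@604 S4 against S3 in H1 (0.0069), FOXA2@304 S6 against S4 in H1 (3.10, a fitted value on at most 4 IP reads that is no measure of size), FOXA2@604 S6 against S4 in MEL1 (0.15), LINC00261@4253 S6 against S4 in MEL1 (-0.059), FOXA2@604 S6 against S4 on leaving out (-0.26 to 0.061) and FOXA2@604 line difference S4 against S3 with library totals (0.11). The causes were not tested. In the input libraries, same-numbered samples correlated at -0.0088 to 0.0535 over 6 pairs of stages in H1 and at 0.066 to 0.128 in MEL1, where 3 of 6 were above 0.1. Not every pair passed that limit, so the numbers were not taken to pair the stages, though MEL1 may share something by number. A block by that number changed no member call and moved the genes called for S4 against S3 from 147 to 93. Low S0 counts limit every fold against S0.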
